A study of Mus musculus with 18 samples.

Results

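The mRNAs described here encode the 10 genes of the MYC, MAX and MXD network: Myc, Mycn, Max, Mxd1, Mxd3, Mxd4, Mxi1, Mnt, Mlx and Mga. They were taken by Entrez number from the 28096 genes counted in 18 RNASeq libraries of mouse splenic B cells, and the rule was membership of the gene family. The cells came from WT or Ubqln1-/- (KO) C57BL/6 N mice of at least 8 weeks and were left resting or stimulated for 4 hr. The stimuli were anti-IgM F(ab)2 at 10 μg/mL, which crosslinks the B cell receptor, and LPS of E. coli K12 at 20 μg/mL, a TLR4 ligand. There were 3 libraries in each of the 6 groups, and each library held RNA pooled from wells stimulated in triplicate. The KO allele lacks exon 2 of Ubqln1 in every cell of the mouse, because the exon was removed in ES cells. The other cells are WT according to the labels. Which libraries shared a mouse is not given in the sources used here, so the p-values below measure the spread between these libraries.

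MYC is a basic helix-loop-helix leucine zipper protein that binds DNA as a partner of MAX and switches on genes for ribosome production, nucleotide synthesis and metabolism. MXD proteins (Mxd1, Mxd3, Mxd4 and Mxi1) and MNT compete for MAX and bring the SIN3-HDAC corepressor to the same sites, while MLX is an alternative partner for some of them and MGA joins MAX in a Polycomb complex. Resting B cells hold little MYC, and its induction by antigen receptor or Toll-like receptor signals precedes growth and division.

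The site that these dimers prefer is the E-box CACGTG, which reads the same on both strands. RefSeq promoter windows (GRCm38.p6, 250 bases before to 50 bases after a start site) were matched for 9 of the 10 genes, all but Myc, and 4 of the 9 (44.4%) held this motif, against 8.09% of 27025 genes overall. Each of the 4 is shown with 20 bases on either side, 5′ to 3′ on the strand of its gene and with the motif in capitals, because these are the members whose own promoters carry the letters that the network's proteins bind.
Mxd4: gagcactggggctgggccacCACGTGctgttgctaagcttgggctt
Mnt: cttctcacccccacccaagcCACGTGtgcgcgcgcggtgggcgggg
Mlx: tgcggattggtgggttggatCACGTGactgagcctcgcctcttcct
Max: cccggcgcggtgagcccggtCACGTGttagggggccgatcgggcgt
The Mxd4 stretch lies at chr5:34187904-34187949 on the minus strand, and its motif begins 219 bases before the start site. For Mnt it lies at chr11:74830781-74830826 on the plus strand with the motif 123 bases before the start site, and for Mlx at chr11:101087230-101087275 on the plus strand with the motif 40 bases before. In Max, at chr12:76962226-76962271 on the minus strand, the motif begins 3 bases before the start site. The start sites are those of the RefSeq windows (positions 34187710 for Mxd4, 74830924 for Mnt, 101087290 for Mlx and 76962248 for Max), and those of Mnt, Mlx and Max lie inside the gene bounds given with each gene below. A match describes letters only, and binding was not measured in these libraries.

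The libraries held 15368941 to 41072854 counts on genes (median 23257531). Levels are given as RPKM, the count divided by the width of the gene and by the size of the library after TMM scaling, so that they can be compared between genes. Exons of Ubqln1 were counted at 24.8 to 34.8 RPKM in the 9 KO libraries and at 62.3 to 92.0 RPKM in the 9 WT libraries, a check that rests on the exons outside the deletion as well. All 7 B cell markers reached 10 CPM, and their summed level was 7200 to 8630 CPM in resting WT, 2376 to 3028 CPM in anti-IgM-stimulated WT and 5685 to 6796 CPM in LPS-stimulated WT libraries. T cell markers summed to 0.499 to 1.21 CPM and neutrophil markers to at most 1.04 CPM, while macrophage and monocyte markers summed to 21.6 to 48.8 CPM in resting WT and to 10.9 to 17.7 CPM in stimulated WT libraries. Plasma cell markers summed to 354 to 585 CPM in resting WT and 284 to 312 CPM in resting KO libraries. After anti-IgM their sum was 335 to 544 CPM in WT and 279 to 298 CPM in KO. After LPS it was 219.5 to 420 CPM in WT and 184.5 to 198.5 CPM in KO, so WT lay above KO in each condition. The part of these marker differences in the results below was not tested, and fewer cells of a type and less RNA per cell cannot be told apart in bulk samples.

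Both stimuli raised Myc 8.68- to 10.2-fold, and the repressor mRNAs moved in several ways. Mxd4 and Mxi1 fell with either stimulus in both genotypes, and Mxd3 fell most with LPS. Mnt rose with anti-IgM and was 0.73 to 0.80 lower (log2) after LPS than after anti-IgM, while Mxd1 passed the test for a fall with anti-IgM alone. Of the shared partners, Max stayed within 1.15-fold of rest and Mlx fell to 0.818-fold at the lowest. In WT cells 3 of the 9 testable members were higher and 5 were lower after anti-IgM (edgeR, adjusted p under 0.05), where 64.6% of all 14161 genes tested were called (32.4% higher, 32.2% lower). After LPS 2 members were higher and 4 lower, where 61.2% of genes were called (31.2% higher, 30.1% lower). The KO counts were 3 higher and 3 lower after anti-IgM, where 65.3% of genes were called (32.9% higher, 32.4% lower), and again 3 and 3 after LPS, where 60.7% were called (30.6% higher, 30.2% lower). Apart from WT anti-IgM, where 8 of 9 members were called, these shares of the fit without a block lie near the background. With the replicate number as a block, 9 members were called after anti-IgM in WT and 8 in KO. Of the 14161 genes, 9905 and 10010 were called there. After LPS the block called 7 members in each genotype, beside 9625 genes in WT and 9480 in KO. The directions and sizes of single members carry the description below. The anti-IgM and LPS comparisons of a genotype share their resting libraries.

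Myc (Entrez 17869, chr15:61985341-61990361, plus strand) is the activator of the network. Its level in the resting WT libraries was 32.4, 52.6 and 40.1 RPKM, in those stimulated with anti-IgM 343, 426 and 384 RPKM, and in those stimulated with LPS 363, 432 and 293 RPKM. In KO cells it was 29.5, 44.2 and 29.4 RPKM at rest, 313, 329 and 308 RPKM after anti-IgM, and 355, 401 and 299.5 RPKM after LPS. No stimulated library came near a resting one, whereas the anti-IgM and LPS libraries of each genotype overlapped. The fitted rise with anti-IgM was 9.19-fold in WT (log2 3.20, SE 0.197, edgeR adjusted p = 1.29e-09) and 9.21-fold in KO (log2 3.20, SE 0.197, edgeR adjusted p = 1.49e-09). With LPS it was 8.68-fold in WT (log2 3.12, edgeR adjusted p = 3.57e-09) and 10.2-fold in KO (log2 3.36, edgeR adjusted p = 2.36e-09). LPS against anti-IgM gave a log2 difference of -0.08 in WT (95% interval -0.46 to 0.30, edgeR adjusted p = 0.774) and 0.15 in KO (-0.23 to 0.53, edgeR adjusted p = 0.575). Without WT LPS replicate 3, the lowest of its group, the WT difference was 0.050.

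Mycn (Entrez 18109, chr12:12936093-12941836, minus strand), the MYC paralog best known from neural tissue, was not detectable as a regulated gene at this depth. It had 0 to 3 counts in each library, 18 counts over all 18 libraries, and 0 in 8 of them. Mycn did not pass the expression filter and was not tested, so no fold change is given. The other paralog, Mycl, was also low at 0.117 to 0.511 RPKM, so almost all MYC family mRNA in these cells was Myc. Mycl passed the test after LPS in WT (log2 0.72, edgeR adjusted p = 0.0353), but not with DESeq2 (0.0687), without the filter (0.0513), with only the groups compared (0.0708) or without WT resting replicate 1 or 2 or WT LPS replicate 2 or 3 (0.0618 to 0.147). It also passed after anti-IgM in KO (log2 -0.80, edgeR adjusted p = 0.0258), and was lost without KO resting replicate 1 or 2 or KO anti-IgM replicate 3 (0.0673 to 0.108).

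**Figure D1:**
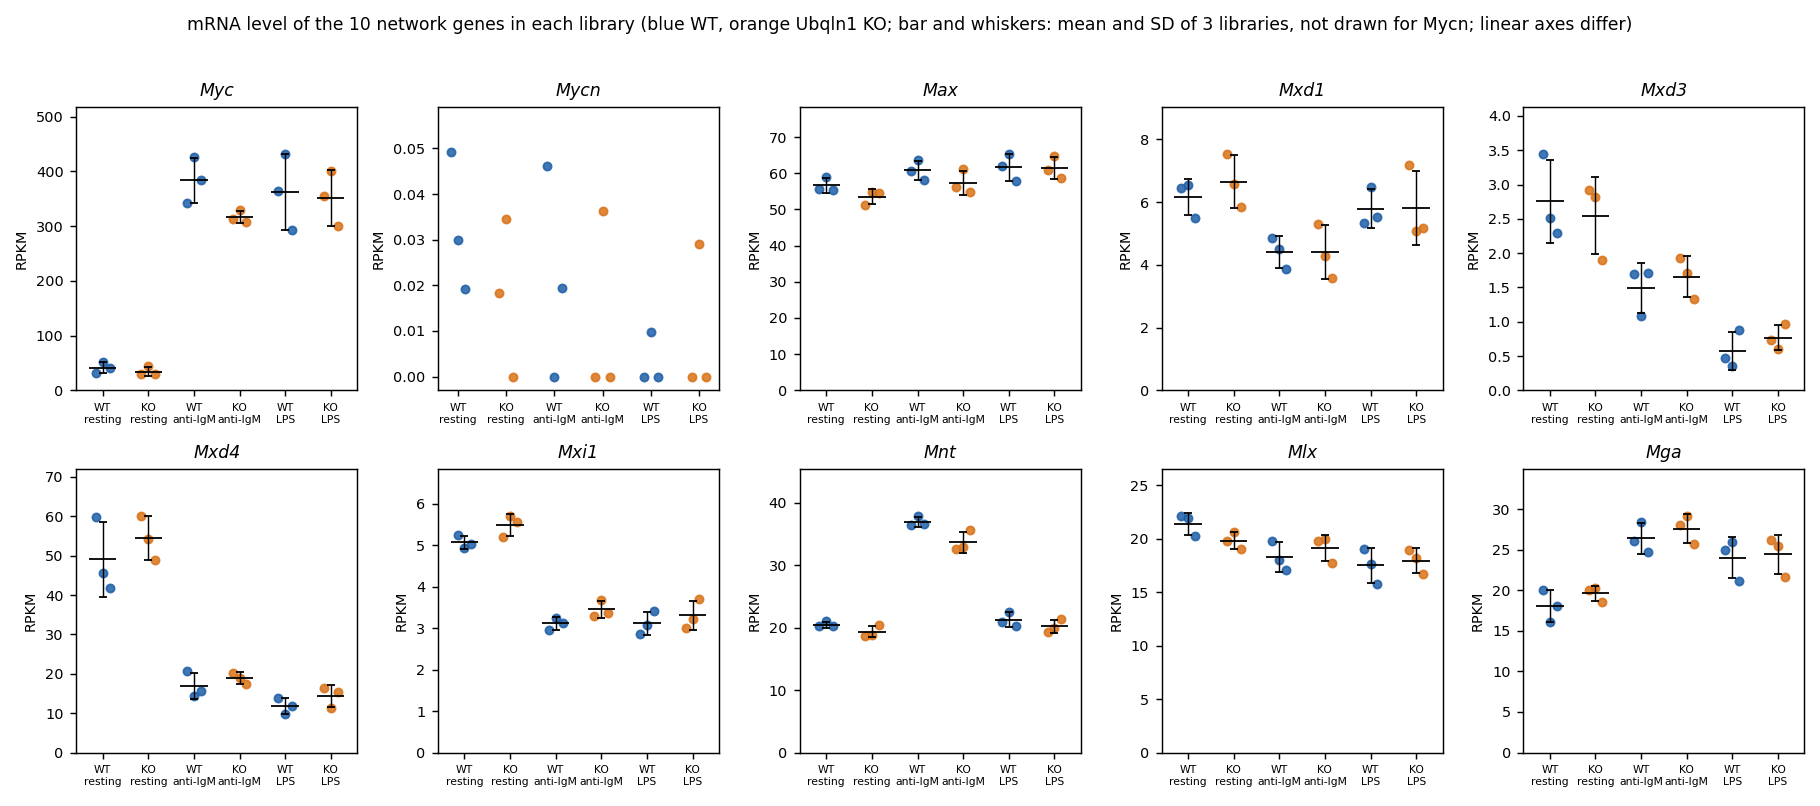
Level of each of the 10 network mRNAs in every library (y axis, RPKM, linear and differing between panels) by genotype and condition (x axis); points are libraries, blue WT and orange KO, with the mean and SD of 3 libraries. Myc lies between 293 and 432 RPKM in stimulated libraries and between 29.4 and 52.6 RPKM in resting ones, Mxd4 falls under both stimuli, and Mnt stands at 32.5 to 37.9 RPKM in the anti-IgM libraries and lower in all others.

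Max (Entrez 17187, chr12:76937269-76962323, minus strand), the obligate partner, was abundant and changed little. It stood at 55.4 to 59.0 RPKM in resting WT, 58.3 to 63.6 RPKM after anti-IgM and 57.7 to 65.3 RPKM after LPS, and these ranges overlapped. The KO ranges were 51.1 to 54.8, 54.7 to 61.1 and 58.7 to 64.8 RPKM in the same order, and here the LPS libraries lay above the resting ones. Only the KO rise with LPS passed the test (log2 0.20, SE 0.0612, edgeR adjusted p = 0.00972), and without KO LPS replicate 2 it did not (log2 0.16, edgeR adjusted p = 0.0579). The WT rise with LPS was 0.12 (log2, edgeR adjusted p = 0.0945, or 0.0348 without WT LPS replicate 3). With the replicate number as a block, the rise passed in the other 3 comparisons as well: WT anti-IgM (log2 0.10, edgeR adjusted p = 0.155 without and 0.0387 with the block), KO anti-IgM (log2 0.10, 0.165 without and 0.0463 with the block) and WT LPS (0.0162 with the block).

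Since Max changed little, the ratio of Myc to Max mRNA followed Myc. It was 0.732 ± 0.154 (SD, n = 3) in resting WT and 0.640 ± 0.145 in resting KO cells, so resting B cells held less Myc than Max mRNA. After anti-IgM it was 6.31 ± 0.568 in WT and 5.53 ± 0.128 in KO, and after LPS 5.85 ± 0.769 and 5.71 ± 0.559. Every stimulated library had at least 5.07 times as much Myc as Max mRNA, and every resting one less than 1. No test was run on ratios, and mRNA levels do not give protein levels.

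**Figure D2:**
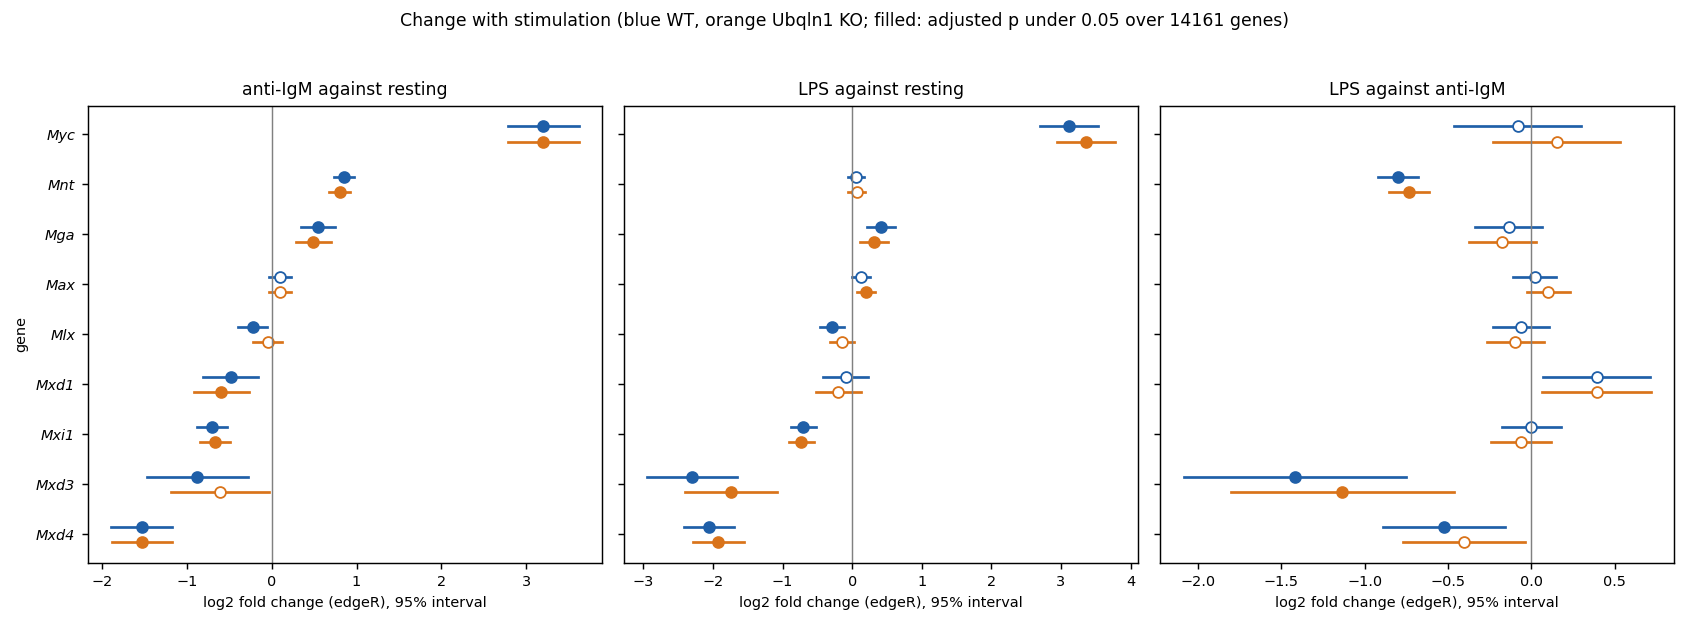
Log2 fold change (x axis, edgeR) of the 9 testable members (y axis) for anti-IgM against resting, LPS against resting and LPS against anti-IgM, blue WT and orange KO, with 95% intervals; filled points have an adjusted p under 0.05. Myc sits between 3.12 and 3.36 in the first 2 panels, Mxd4 between -2.06 and -1.52 and Mxd3 lowest of all at -2.30 in WT after LPS. In these 2 panels Mnt leaves 0 after anti-IgM only, and in the LPS against anti-IgM panel it lies at -0.80 in WT and -0.73 in KO.

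Mxd4 (Entrez 17122, chr5:34176580-34187710, minus strand), an MXD family repressor, had the highest RPKM of the repressors at rest and fell the furthest after anti-IgM. It stood at 59.9, 45.6 and 41.7 RPKM in resting WT, 20.8, 14.5 and 15.6 RPKM after anti-IgM and 13.9, 9.81 and 11.7 RPKM after LPS. The KO libraries gave 60.0, 54.3 and 48.9 RPKM at rest, 20.3, 19.0 and 17.4 RPKM after anti-IgM and 16.4, 11.3 and 15.5 RPKM after LPS. Every resting library lay above every stimulated one, and within each genotype the LPS libraries lay below the anti-IgM ones. The change with anti-IgM was -1.53 in WT (log2, SE 0.170, edgeR adjusted p = 6.19e-07) and -1.52 in KO (edgeR adjusted p = 5.84e-07), and with LPS -2.06 (edgeR adjusted p = 5.23e-08) and -1.93 (edgeR adjusted p = 1.09e-07). The RPKM of Mxd4 rests on the deposited width of 1179 bases. In CPM, which leaves out the width, the resting WT means were 57.9 for Mxd4 and 94.0 for Mnt. Of 8483 annotated exon bases of Mxd4, 514 overlap Gm42846 on the opposite strand.

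LPS lowered Mxd4 further than anti-IgM did in WT (log2 -0.53, SE 0.173, edgeR adjusted p = 0.0270), and 3 of the 9 members were lower and none higher in this comparison, where 32.4% of genes were called (17.4% higher, 15% lower). The Mxd4 call was lost without WT anti-IgM replicate 1 (log2 -0.35, edgeR adjusted p = 0.160), without WT LPS replicate 2 (log2 -0.40, adjusted p = 0.116) or without WT LPS replicate 3 (log2 -0.52, adjusted p = 0.0613). In KO the difference was -0.40 (edgeR adjusted p = 0.0903) and passed with the replicate number as a block (log2 -0.41, edgeR adjusted p = 0.00449). KO cells had 2 members called in this comparison, both lower, where 31.3% of genes were called (16.8% higher, 14.5% lower).

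Mnt (Entrez 17428, chr11:74830806-74845725, plus strand), a MAX-dependent repressor made in most cell types, separated the stimuli most cleanly. Its level was 20.2, 21.1 and 20.2 RPKM in resting WT, 36.4, 37.9 and 36.6 RPKM after anti-IgM, and 20.9, 22.6 and 20.3 RPKM after LPS. In KO cells it was 18.7, 18.9 and 20.4 RPKM at rest, 32.5, 32.9 and 35.7 RPKM after anti-IgM, and 19.3, 20.0 and 21.4 RPKM after LPS. The 6 anti-IgM libraries lay above all 12 others, and resting and LPS libraries overlapped. Anti-IgM raised Mnt by 1.80-fold in WT (log2 0.85, SE 0.0569, edgeR adjusted p = 2.82e-09) and 1.74-fold in KO (log2 0.80, edgeR adjusted p = 5.58e-09). With LPS the log2 change was 0.05 in WT (95% interval -0.07 to 0.17, edgeR adjusted p = 0.438) and 0.07 in KO (-0.05 to 0.19, edgeR adjusted p = 0.323). The direct comparison of LPS with anti-IgM gave -0.80 in WT (SE 0.0565, edgeR adjusted p = 1.03e-08) and -0.73 in KO (SE 0.0568, edgeR adjusted p = 3.52e-08), and it was passed in every fit that left out 1 library, with log2 values of -0.84 to -0.76 in WT and -0.77 to -0.70 in KO.

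Mxd3 (Entrez 17121, chr13:55325170-55329900, minus strand), known from cells in S phase, was the least abundant of the tested members and fell in steps from rest to anti-IgM to LPS. The resting WT libraries had 3.45, 2.52 and 2.30 RPKM, the anti-IgM libraries 1.69, 1.08 and 1.72 RPKM and the LPS libraries 0.472, 0.352 and 0.882 RPKM, with 18 to 84 counts behind each value. The 3 WT groups did not overlap. In WT the change was -0.88 with anti-IgM (log2, SE 0.281, edgeR adjusted p = 0.0116) and -2.30 with LPS (SE 0.305, edgeR adjusted p = 6.62e-06), and LPS lay below anti-IgM by -1.42 (edgeR adjusted p = 0.00212). The anti-IgM call was lost without WT resting replicate 1 (log2 -0.70, edgeR adjusted p = 0.0610) or without WT anti-IgM replicate 2 (log2 -0.67, adjusted p = 0.0681).

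In KO cells Mxd3 had 1.90 to 2.92 RPKM at rest, 1.33 to 1.92 RPKM after anti-IgM and 0.608 to 0.972 RPKM after LPS, and the LPS libraries lay below all others. The KO fall with LPS passed (log2 -1.74, SE 0.312, edgeR adjusted p = 0.000137), as did LPS against anti-IgM (log2 -1.13, edgeR adjusted p = 0.0111, or 0.0639 without KO LPS replicate 2). With anti-IgM the KO change of -0.61 did not pass (edgeR adjusted p = 0.0596), but it passed with the replicate block (0.0325), limma with voom (0.0474), 10 counts in every sample (0.0486) or only the groups compared (0.0331), and without WT LPS replicate 2 (0.0450), WT LPS replicate 3 (0.0314) or KO resting replicate 3 (log2 -0.78, 0.0284). Exons of Mxd3 share 105 bases with the more abundant Prelid1 on the opposite strand, and with a kit that does not mark strand reads there cannot be told apart.

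Mxi1 (Entrez 17859, chr19:53310128-53373293, plus strand), also called Mxd2, fell by like amounts in all 4 comparisons with rest. Its range was 4.94 to 5.24 RPKM in resting WT, 2.95 to 3.26 RPKM after anti-IgM and 2.86 to 3.41 RPKM after LPS, and in KO 5.19 to 5.70, 3.31 to 3.68 and 3.00 to 3.70 RPKM. Resting libraries lay above all stimulated ones. The log2 changes were -0.70 in WT and -0.67 in KO with anti-IgM (edgeR adjusted p = 1.68e-06 and 2.59e-06) and -0.70 in WT and -0.73 in KO with LPS (edgeR adjusted p = 2.13e-06 and 1.66e-06). Between LPS and anti-IgM the difference was 0.00 in WT (95% interval -0.18 to 0.18) and -0.06 in KO (-0.24 to 0.12). Of 6823 annotated exon bases of Mxi1, 194 overlap Gm10197 on the opposite strand.

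Mxd1 (Entrez 17119, chr6:86647044-86669234, minus strand), a repressor known to rise in differentiating cells, fell with anti-IgM in both genotypes. It stood at 6.45, 6.54 and 5.50 RPKM in resting WT, 4.85, 4.49 and 3.86 RPKM after anti-IgM and 5.33, 6.49 and 5.52 RPKM after LPS. The anti-IgM libraries lay below both other WT groups, and these overlapped each other. In KO the ranges were 5.84 to 7.53 RPKM at rest, 3.59 to 5.30 RPKM after anti-IgM and 5.06 to 7.18 RPKM after LPS, and the last overlapped both others. Anti-IgM changed it by -0.48 in WT (log2, SE 0.155, edgeR adjusted p = 0.0115) and by -0.59 in KO (SE 0.153, edgeR adjusted p = 0.00270), whereas the log2 change with LPS was -0.09 in WT (95% interval -0.41 to 0.23, edgeR adjusted p = 0.623) and -0.20 in KO (-0.53 to 0.12, edgeR adjusted p = 0.269). The WT fall with anti-IgM did not pass without WT resting replicate 2 (log2 -0.43, edgeR adjusted p = 0.050) or without WT anti-IgM replicate 3 (log2 -0.39, adjusted p = 0.0591).

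LPS against anti-IgM gave 0.39 for Mxd1 in both genotypes and did not pass in either (edgeR adjusted p = 0.0602 in WT and 0.0639 in KO), so the stimuli were not shown to differ for Mxd1 in this fit. With the replicate number as a block it passed in both (edgeR adjusted p = 0.00455 and 0.00663), and in WT also with DESeq2 (0.0492) or with only the groups compared (0.0424). It also passed without KO anti-IgM replicate 1 (0.0446 in WT and, at log2 0.55, 0.0187 in KO), in WT without KO LPS replicate 1 (0.0371) and in KO without KO LPS replicate 2 (log2 0.49, 0.0433).

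**Figure D3:**
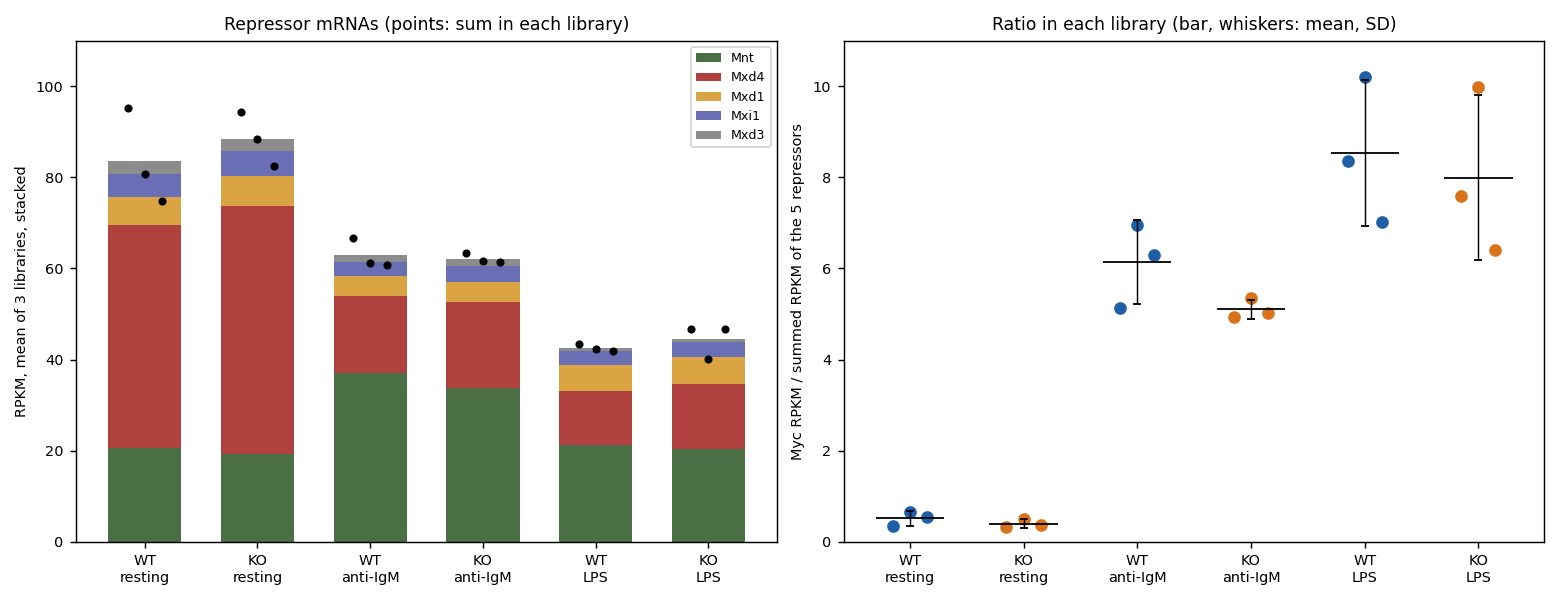
Left, mean RPKM of the 5 repressor mRNAs stacked by gene (y axis) in the 6 groups, with points for the sum in each library; right, Myc RPKM divided by that sum in each library, with mean and SD (blue WT, orange KO). The sum falls from 83.6 RPKM in resting WT to 62.9 after anti-IgM and 42.5 after LPS. By RPKM, Mnt replaces Mxd4 as the largest part, whereas in CPM Mnt exceeds Mxd4 at rest as well.

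The repressor mRNAs were summed per length to show how the members' movements combined. Together Mxd1, Mxd3, Mxd4, Mxi1 and Mnt held 83.6 ± 10.5 RPKM (SD, n = 3) in resting WT, 62.9 ± 3.30 RPKM after anti-IgM and 42.5 ± 0.843 RPKM after LPS. The KO sums were 88.4 ± 5.91, 62.1 ± 1.08 and 44.6 ± 3.75 RPKM, and in each genotype the 3 conditions did not overlap. Mxd4 made up 58.4% of the sum in resting WT and Mnt 24.8%, while after anti-IgM Mxd4 made up 26.8% and Mnt 58.9%, and after LPS 27.7% and 50.0%. The same exchange was seen in KO, where Mxd4 went from 61.4% to 30.4% with anti-IgM and 32.2% with LPS, and Mnt from 22.0% to 54.3% and 45.7%. With LPS the Mnt mean itself went only from 20.5 to 21.3 RPKM in WT and from 19.3 to 20.3 RPKM in KO. These parts depend on the gene widths. In CPM the Mnt mean was above that of Mxd4 at rest too, at 94.0 against 57.9 in WT and 88.6 against 64.2 in KO.

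Myc divided by the repressor sum was 0.509 ± 0.158 in resting WT, 6.14 ± 0.923 after anti-IgM and 8.53 ± 1.6 after LPS, and 0.390 ± 0.0981, 5.10 ± 0.214 and 7.99 ± 1.82 in KO. Resting libraries stayed at or below 0.652 and stimulated ones at or above 4.94. Each LPS mean exceeded the anti-IgM mean of its genotype while Myc itself did not differ between them beyond the spread, and the lower repressor sum after LPS came mainly from Mnt, with means of 21.3 RPKM after LPS and 37.0 RPKM after anti-IgM in WT. Without Mnt in the sum the ratio was 15.1 after anti-IgM and 17.2 after LPS in WT, and 11.2 and 14.9 in KO. These ratios carry no test.

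Mlx (Entrez 21428, chr11:101086707-101092207, plus strand), which pairs with MXD1, MXD4, MNT and the glucose-responsive factor MLXIP, was slightly lower after stimulation. It ranged from 20.2 to 22.1 RPKM in resting WT, 17.1 to 19.8 RPKM after anti-IgM and 15.8 to 19.1 RPKM after LPS, and from 19.0 to 20.7, 17.8 to 19.9 and 16.7 to 19.0 RPKM in KO. The WT falls passed (log2 -0.23 with anti-IgM, edgeR adjusted p = 0.0212, and -0.29 with LPS, edgeR adjusted p = 0.00483), and the KO changes were -0.05 (adjusted p = 0.619) and -0.14 (adjusted p = 0.136, or 0.0206 with the replicate block). The anti-IgM call was lost without WT resting replicate 1 (edgeR adjusted p = 0.0625) or 2 (0.0775), or WT anti-IgM replicate 2 (0.0767) or 3 (0.10), with log2 values of -0.21 to -0.17, and the KO change with anti-IgM was 0.020 without KO anti-IgM replicate 3. Of 1999 exon bases of Mlx, 385 overlap the antisense gene Psmc3ip, which itself stood at 4.44 to 7.50 RPKM.

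Of 4 other network genes 3 could be tested (Mycl, Mlxip and Mycbp), and none was higher and 1 lower after anti-IgM in WT, 0 and 2 in KO, 2 higher and 0 lower after LPS in WT, and 1 and 0 in KO. Of all genes, 32.4% were higher and 32.2% lower after anti-IgM in WT (32.9% and 32.4% in KO). After LPS these shares were 31.2% and 30.1% in WT and 30.6% and 30.2% in KO. Mlxip, which encodes the MLX partner MondoA, moved in opposite directions with the stimuli. Its mRNA was lower after anti-IgM (log2 -0.34 in WT and -0.27 in KO, edgeR adjusted p = 8.78e-05 and 0.000725) and higher after LPS (0.21 and 0.19, edgeR adjusted p = 0.00550 and 0.0111). Of 2 targets of the MLX-MLXIP dimer, 1 was lower and none higher in each of the 4 comparisons with rest, beside the shares of all genes just given. It was Txnip, an inhibitor of glucose uptake, which stood at 183 to 204 RPKM in resting WT, 66.2 to 78.5 RPKM after anti-IgM and 110 to 133 RPKM after LPS. Txnip fell with both stimuli, and further with anti-IgM (log2 -1.43 in WT and -1.40 in KO) than with LPS (-0.65 in both). LPS against anti-IgM gave 0.78 for Txnip in WT (edgeR adjusted p = 1.53e-05) and 0.55 for Mlxip (edgeR adjusted p = 1.42e-06), so both genes were higher after LPS than after anti-IgM.

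Mga (Entrez 29808, chr2:119872503-119970129, plus strand), the scaffold that carries MAX into the PRC1.6 Polycomb complex, rose moderately with both stimuli. Its level was 20.1, 16.1 and 18.0 RPKM in resting WT, 26.1, 28.4 and 24.7 RPKM after anti-IgM and 24.9, 26.0 and 21.2 RPKM after LPS. In KO cells the ranges were 18.6 to 20.3 RPKM at rest, 25.7 to 29.1 RPKM after anti-IgM and 21.7 to 26.2 RPKM after LPS, and no stimulated library of either genotype fell into its resting range. The log2 rise with anti-IgM was 0.55 in WT and 0.49 in KO (edgeR adjusted p = 8.66e-05 and 0.000245), and with LPS 0.41 and 0.32 (edgeR adjusted p = 0.00129 and 0.00883). LPS against anti-IgM was -0.14 in WT (edgeR adjusted p = 0.312) and -0.18 in KO (adjusted p = 0.183, or 0.0472 with the replicate block).

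The order of the levels changed with stimulation. In resting WT cells Max (56.7 ± 2.06 RPKM), Mxd4 (49.1 ± 9.54) and Myc (41.7 ± 10.2) led, and each overlapped the next in that order. Mlx and Mnt followed and overlapped each other, then came Mga, Mxd1, Mxi1 and Mxd3, each apart from its neighbours. In WT after either stimulus Myc was first (384 ± 41.4 RPKM after anti-IgM, 363 ± 69.5 after LPS) and Max second. Mnt came next after anti-IgM, and Mga and Mnt, which overlapped each other, came next after LPS. Mxd4 dropped to the sixth place under both stimuli.

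The genes next to the network were described from lists of its cofactors, regulators and targets. The lists were chosen with earlier results of these data known, so their counts beside the background are a description and carry no test. Of 28 genes known to be induced by MYC, 27 were higher after anti-IgM in WT (background 32.4% higher) and none was lower, with a median log2 change of 1.69 beside -0.01 over all genes. The KO counts and median were 27, none and 1.71. After LPS 27 were higher and 1 was lower in both genotypes, with medians of 1.46 in WT and 1.49 in KO. Srm, which makes spermidine, rose by 2.41 (WT anti-IgM, edgeR adjusted p = 2.39e-09) and 2.33 (WT LPS), and Hk2, a hexokinase, by 2.24 and 2.61. The smallest rises among the 27 in WT were those of Hspe1, a mitochondrial chaperonin, at 1.06 and 0.80, and Bop1, a ribosome biogenesis factor, rose by 1.16 and 1.23. The gene that went the other way was Tert, the telomerase reverse transcriptase, with -0.94 after LPS in WT (edgeR adjusted p = 0.000578) and -0.64 in KO (edgeR adjusted p = 0.00984, or 0.0607 without KO resting replicate 1). After anti-IgM in WT Tert gave -0.45 (edgeR adjusted p = 0.0565), or -0.26 without WT resting replicate 1, and it passed with the replicate block (0.0101), DESeq2 (0.0493) and 10 counts in every sample (0.0490). E-boxes stood in the promoter windows of 8 of the 24 list genes that had one (33.3%, beside 8.09% of all genes).

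Genes known to be repressed by MYC moved less uniformly, and 6 of the 7 listed could be tested. After anti-IgM 2 were lower in WT, beside 32.2% of all genes, none was higher, and the median log2 change was -0.33. After LPS 3 were lower and 1 higher, beside 30.1% and 31.2% of all genes, with a median of -0.72. Cdkn1b, the p27 inhibitor of cyclin-dependent kinases, fell by 1.25 with anti-IgM and by 1.14 with LPS in WT on the log2 scale (edgeR adjusted p = 7.95e-10 and 4.07e-09). Gadd45a, a stress-response gene, fell by 0.98 and by 1.40. Cdkn1a, the p21 inhibitor, gave -0.18 after anti-IgM (edgeR adjusted p = 0.442) and rose with LPS (0.63, edgeR adjusted p = 0.00903, or 0.46 and 0.0540 without WT LPS replicate 3). Ndrg1 fell by 1.03 with LPS and gave 0.64 after anti-IgM (edgeR adjusted p = 0.0513), or 0.21 without WT anti-IgM replicate 1 and up to 0.89 without other libraries. That value passed with the replicate block (0.00331), DESeq2 (0.0393) and no filter (0.0477). In KO cells 2 were lower and 1 higher after anti-IgM, beside 32.4% and 32.9% of all genes. After LPS 3 were lower and 1 higher in KO, beside 30.2% and 30.6%.

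**Figure D4:**
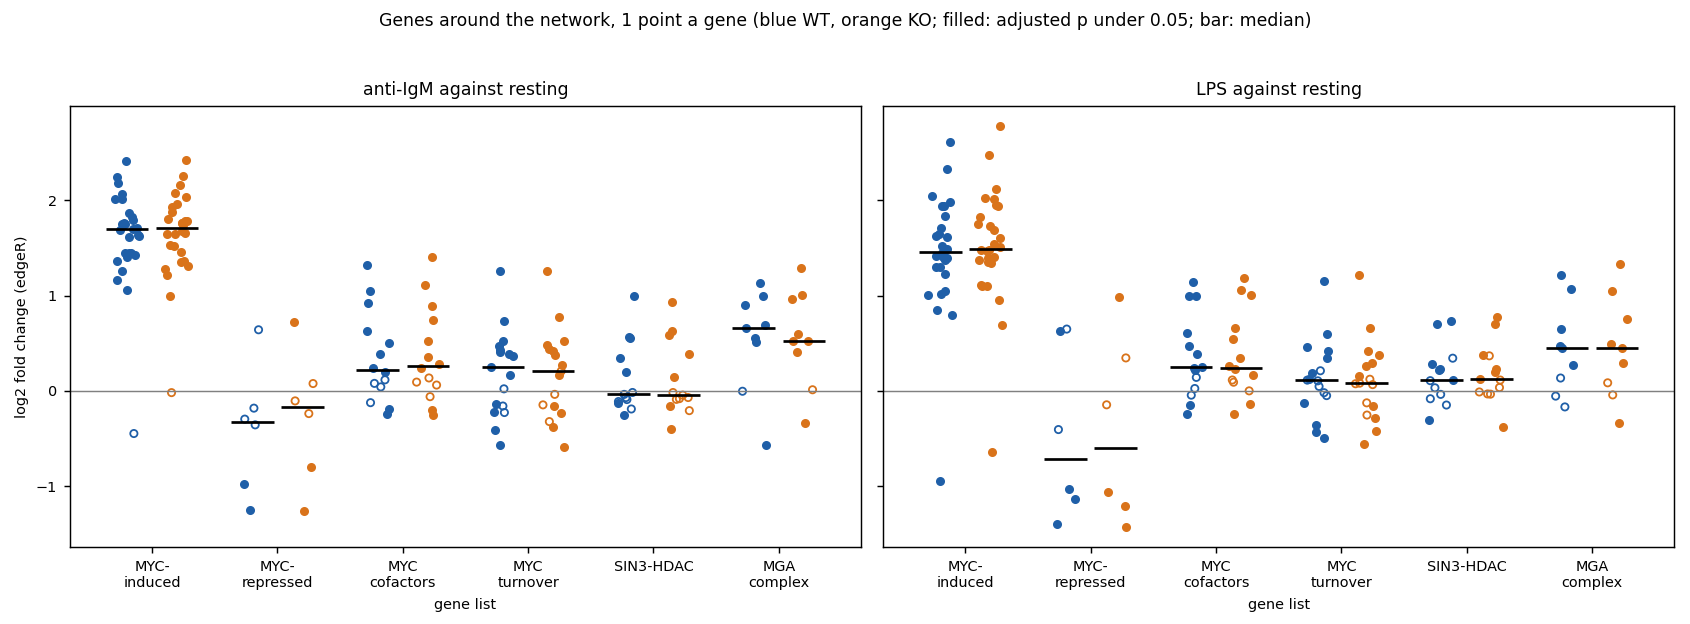
Log2 fold change (y axis, edgeR) of each tested gene in 6 lists around the network (x axis) for anti-IgM and LPS against resting; blue WT, orange KO, filled where the adjusted p is under 0.05, bars at list medians. The MYC-induced genes other than Tert lie between 0.69 and 2.78, and the other lists spread to both sides of 0 or lie nearer to it.

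Among 14 MYC cofactors, 8 were higher and 2 lower after anti-IgM in both genotypes, and 9 were higher and 2 lower after LPS in both, with medians between 0.22 and 0.26, where 64.6% of all genes were called after anti-IgM and 61.2% after LPS in WT. The helicases Ruvbl1 and Ruvbl2 rose most (WT log2 1.32 and 1.05 with anti-IgM, 1.14 and 1.00 with LPS), while Trrap, the scaffold that binds MYC's activation domain, fell by 0.24 with either stimulus. Cdk9, the elongation kinase, gave -0.19 (edgeR adjusted p = 0.00185) and -0.15 (edgeR adjusted p = 0.00867) in WT, the latter lost without the filter (0.0504) or with only the groups compared (0.0920). For the SIN3-HDAC corepressor, through which MXD proteins and MNT act, 5 of 13 subunits were higher and 2 lower after anti-IgM, and 6 higher and 1 lower after LPS, in both genotypes, and the WT medians were -0.04 and 0.11. Neither total exceeded the share of all genes called (64.6% and 61.2% in WT). Rbbp7 rose by 1.00 and 0.70 and Hdac2 by 0.56 and 0.73 in WT, and Arid4b fell by 0.25 and by 0.30. Sin3b, whose product binds the MXD and MNT repressors directly, gave -0.02 after anti-IgM (edgeR adjusted p = 0.768) and 0.11 after LPS (edgeR adjusted p = 0.0385). The LPS call of Sin3b was lost with RLE scaling (0.0608), no filter (0.0825), 10 counts in every sample (0.0586), only the groups compared (0.201), or without WT resting replicate 1 or 3 or WT LPS replicate 1 or 2 (0.106 to 0.141). With anti-IgM in WT, Sap30 rose by 0.57 and Sap130 gave -0.13 (edgeR adjusted p = 0.0210), which was lost with no filter (0.0752), only the groups compared (0.120), or without WT resting replicate 1 or 3 or WT anti-IgM replicate 1 or 2 (0.0605 to 0.0864).

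Of 9 partners of MGA in PRC1.6, 7 were higher and 1 lower after anti-IgM in both genotypes (WT median 0.66), beside 32.4% and 32.2% of all genes in WT. After LPS 6 were higher in both, with none lower in WT and 1 lower in KO (WT median 0.45), beside 31.2% of all genes higher in WT. Tfdp1, the dimer partner of E2F6, rose by 1.13 with anti-IgM and 1.22 with LPS in WT, and Pcgf6, the subunit that defines the complex, by 1.00 and 1.07. Rnf2, its ubiquitin ligase, rose with anti-IgM in WT (0.52, edgeR adjusted p = 9.45e-06) and gave 0.14 with LPS (edgeR adjusted p = 0.117, or 0.0189 with the replicate block), and LPS lay below anti-IgM (-0.38, edgeR adjusted p = 0.000548). Cbx3, a heterochromatin protein, fell with anti-IgM in WT (-0.56, edgeR adjusted p = 0.000671). Yaf2 and Rybp, a pair of related subunits, rose by 0.69 and 0.66 with anti-IgM and by 0.27 and 0.45 with LPS in WT. The LPS call was lost for Yaf2 without WT resting replicate 1 (edgeR adjusted p = 0.0542) and for Rybp without WT resting replicate 2 (0.0507) or WT LPS replicate 2 (0.0654).

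Of 17 genes that act on MYC protein turnover, 10 were higher and 4 lower after anti-IgM in WT (9 and 4 in KO), and 7 were higher and 4 lower after LPS in both genotypes. In WT 32.4% of all genes were higher and 32.2% lower after anti-IgM, and 31.2% and 30.1% after LPS. Usp36, a nucleolar deubiquitinase that stabilizes MYC, rose by 1.25 and 1.16 in WT. Gsk3b, the kinase that marks MYC for degradation, fell by 0.57 and by 0.43, and Btrc, a ubiquitin ligase subunit, by 0.41 and by 0.49. Protein turnover itself was not measured.

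Pvt1, the noncoding neighbour of Myc on chromosome 15, was 0.977, 1.89 and 1.54 RPKM in resting WT, 9.02, 11.9 and 10.6 RPKM after anti-IgM and 6.27, 6.84 and 4.41 RPKM after LPS. All stimulated libraries lay above all resting ones, and the anti-IgM libraries lay above the LPS ones. The log2 rise was 2.80 and 2.75 with anti-IgM in WT and KO and 1.96 and 1.89 with LPS, and LPS against anti-IgM was -0.84 in WT (edgeR adjusted p = 0.000771) and -0.86 in KO (edgeR adjusted p = 0.000815).

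The genes whose log2 CPM followed Myc most closely over the 18 samples were Srm, Dkc1, which modifies ribosomal RNA, and Nop16, a nucleolar protein, each with a Pearson correlation of 0.998. Srm and Dkc1 were on the list of MYC-induced genes. Genes that followed Mxd4 closely included Sptbn1 (0.989), a membrane skeleton protein, and Elf1 (0.987), an ETS family transcription factor. These samples share conditions and libraries, so the correlations are a description of the whole design and carry no test.

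Loss of Ubqln1 changed no member past the test without a replicate block. None of the 9 was called for KO against WT at rest (background 0.0565%), after anti-IgM (0.0989%), after LPS (0.0424%) or over the mean of the 3 conditions (1.16%), and none for the difference of the anti-IgM or the LPS responses, where no gene was called (0%). At an unadjusted p under 0.05 there were 0, 1, 0, 2, 0 and 0 members in these 6 edgeR comparisons without a block, and limma with voom and DESeq2 called none. With the replicate number as a block 1 member was called, Mxd4 over the mean of the 3 conditions (log2 0.21, edgeR adjusted p = 0.0491). There the block called 742 of the 14161 genes tested. The blocked value of Myc over the mean of the 3 conditions was -0.20 (edgeR adjusted p = 0.0719). Myc was lower in the KO library of 3 of 3 same-numbered pairs after anti-IgM and of 2 of 3 after LPS. At rest Myc was also lower in KO for 3 of 3 numbers. Deviations of the same-numbered resting genotypes from their group means correlated at 0.298, 0.0826 and 0.197 for numbers 1, 2 and 3. The KO libraries held less Myc than every WT library after anti-IgM (308 to 329 against 343 to 426 RPKM) and overlapped them at rest and after LPS. Without a block the log2 differences were -0.28 at rest (95% interval -0.67 to 0.11), -0.28 after anti-IgM (-0.66 to 0.10) and -0.04 after LPS (-0.42 to 0.34). With the block the anti-IgM difference was -0.27 (SE 0.103, edgeR unadjusted p = 0.0174, adjusted p = 0.301). The unblocked LPS value was 0.10 without WT LPS replicate 2 and 0.06 without KO LPS replicate 3. The anti-IgM response of Myc differed between the genotypes by 0.00 (95% interval -0.54 to 0.54) and the LPS response by 0.24 (-0.31 to 0.78). The first of these fell below 0 in 5 of the fits without 1 library, with -0.20 without WT resting replicate 2, -0.07 without WT anti-IgM replicate 1, -0.08 and -0.10 without KO resting replicate 1 or 3 and -0.02 without KO anti-IgM replicate 2.

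**Figure D5:**
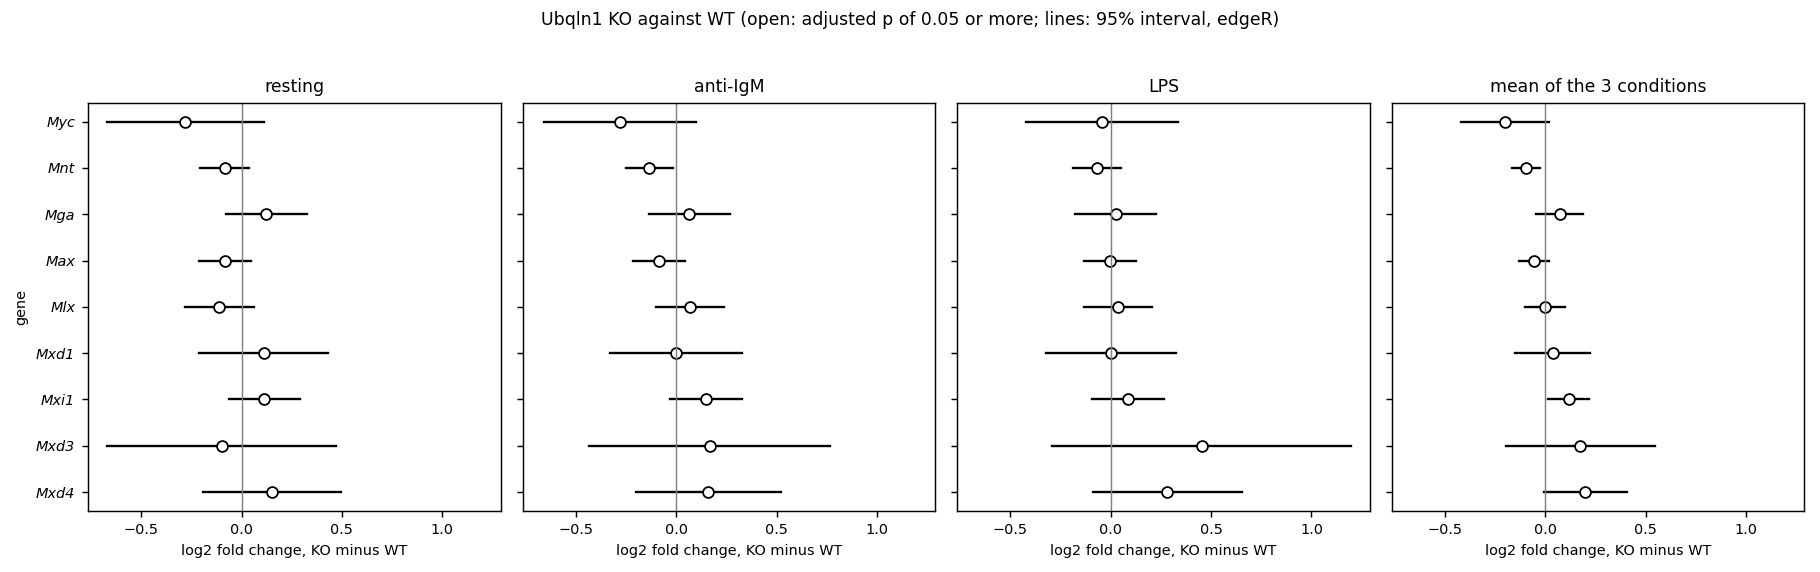
Log2 fold change of KO against WT (x axis, edgeR) for the 9 testable members (y axis) in each condition and over the mean of the 3 conditions, with 95% intervals; open points have an adjusted p of 0.05 or more. All points are open, and the point furthest from 0 is Mxd3 after LPS at 0.45.

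Without a block the smallest unadjusted p-values belonged to Mnt. KO libraries had 32.5 to 35.7 RPKM of Mnt after anti-IgM and WT libraries 36.4 to 37.9 RPKM, without overlap, and the log2 difference was -0.13 (95% interval -0.25 to -0.02, edgeR adjusted p = 0.897). Over the mean of the 3 conditions it was -0.10 (edgeR adjusted p = 0.238), while Mxi1 gave 0.12 (edgeR adjusted p = 0.396) and Mxd4 0.20 (edgeR adjusted p = 0.507). With the block Mnt gave -0.13 after anti-IgM (edgeR unadjusted p = 0.0143, adjusted p = 0.287). Mxd4 gave 0.29 after LPS with the block (edgeR unadjusted p = 0.0178, adjusted p = 0.404). These effects were small beside the stimulation changes of the same genes, except for Mnt with LPS. The LPS changes of Mnt were 0.05 in WT and 0.07 in KO (log2), no larger than its genotype differences. Without a block the intervals over the mean of conditions ran from -0.17 to -0.03 for Mnt and from -0.42 to 0.02 for Myc (log2).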

How the data were processed

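The authors sequenced polyA RNA (TruSeq RNA v2, which does not mark strand, single-end reads of 50 bases), aligned reads to GRCm38 with GSNAP and deposited, for each library, the raw count of reads over the exons of every Entrez gene, the gene width in bases and an RPKM value made from both. The counting program and annotation release are not given in the sources used here. Here edgeR 4.0.16 in R 4.3.3 was run on the deposited counts with TMM scaling, its expression filter (14161 genes kept), 1 term for each of the 6 groups over all 18 samples, and its quasi-likelihood test. P-values were adjusted by the method of Benjamini and Hochberg across those genes, and a gene was called when the result was under 0.05. The standard error was the log2 fold change divided by the square root of F. RPKM was recomputed from counts and widths with TMM-scaled library sizes. Gene names and positions came from RefSeq and GENCODE annotation of GRCm38, and 89.1% of the genes were named.

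The members and gene lists were chosen with earlier results of these data known. All members are named, and from each list the 2 highest and 2 lowest called genes in WT under each stimulus, with the 3 genes best correlated with Myc and with Mxd4, except that 2 genes this rule names are not reported here. Replicates 2 and 3 are numbered in the labels, and the unnumbered sample of a group was called replicate 1. Deviations of same-numbered samples from their group means correlated at 0.266 on average (0.0550 to 0.516 over 45 pairs), and at -0.132 between other numbers. Deviations cancel within each group, so the second value largely follows from the first and is no separate evidence of pairing. All same-numbered pairs exceeded 0.1 within the stimulation comparisons and between the genotypes after either stimulus, but not between the resting genotypes. The numbers were therefore taken to pair the samples in the former. Through these the same numbers also link the resting genotypes. There number 2 correlated at 0.0826, and numbers 1 and 3 at 0.298 and 0.197. The study describes 3 independent experiments and a paired test for Myc, and the labels do not say that a number marks an experiment. Alternatives were RLE scaling, no filter, a minimum of 10 counts in every sample, the replicate block, limma 3.58.1 with voom, DESeq2 1.42.0, only the groups compared (added after seeing the data) and leaving out each library. The counting depth limits low genes such as Mxd3.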

Additional observations from a re-analysis of the deposited data

How the results depend on the processing

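Of the 54 member values in the stimulation comparisons, 53 kept direction and call under RLE scaling, 52 with DESeq2, limma with voom or 10 counts in every sample, and all 54 without the filter. The exceptions to the direction were the near-zero Mxi1 difference between LPS and anti-IgM in WT, at 0.00 in the reported fit, which was -0.0051 with RLE scaling, -0.0059 with 10 counts in every sample, -0.0063 with DESeq2, -0.0049 with voom, -0.0025 with the replicate block and -0.0024 with only the groups compared. With the replicate block, 9 further values passed, all given beside their results, so that 5 members rather than 2 were called for LPS against anti-IgM in KO. Of the 14161 genes tested, the block called 5924 in that comparison, rather than 4437. In KO against WT over the mean of the 3 conditions, the block called 1 member rather than 0 (Mxd4, log2 0.21, edgeR adjusted p = 0.0491). Over all genes it called 742 there, rather than 164. That mean includes the resting genotypes, whose pair of number 2 correlated at 0.0826. The block changed no other member's call. Fitting only the groups compared, Mxd4 for LPS against anti-IgM had an adjusted p of 0.0739 in WT and 0.0481 in KO, Mxd3 for anti-IgM in KO 0.0331 and Mxd1 for LPS against anti-IgM in WT 0.0424. Without the filter Tert in KO after anti-IgM was 0.016, against -0.02 as reported. The cause of these changes was not tested.

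Leaving out each library gave values on both sides of 0 for Myc (WT LPS against anti-IgM, -0.23 to 0.050, KO against WT after LPS, -0.18 to 0.10, and the difference of anti-IgM responses, -0.20 to 0.23), Max (WT LPS against anti-IgM, -0.024 to 0.064), Mxi1 (the same, -0.068 to 0.057), Mlx (KO anti-IgM, -0.077 to 0.020, and WT LPS against anti-IgM, -0.13 to 0.0050), Mycl (KO LPS, -0.049 to 0.28), Sin3b (WT anti-IgM, -0.041 to 0.032) and Tert (KO anti-IgM, -0.12 to 0.14). Myc over the repressors depended on the repressors counted. Without Mxd4 it was 1.21 at rest, 8.35 after anti-IgM and 11.8 after LPS in WT, and 1.01, 7.33 and 11.7 in KO. Without Mnt it was 0.683, 15.1 and 17.2 in WT, and 0.500, 11.2 and 14.9 in KO. With 3 libraries a group and a biological coefficient of variation of 10.14%, small differences such as those of Max and Mlx are at the limit of detection without a block. With the block Max passed in each comparison with rest (edgeR adjusted p = 0.000476 to 0.0463), and Mlx in all but KO anti-IgM (0.390).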
